A study of Mus musculus with 4 samples.

Results

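The Myc and Max network is a family of basic helix-loop-helix leucine zipper transcription factors. Its 10 members are Myc, Mycn, Mycl, Max, Mxd1, Mxd3, Mxd4, Mxi1, Mnt and Mlx, taken by gene symbol from the array's probe annotation, out of 19937 genes that have a probe set of their own. Each member was measured by exactly 1 probe set that carries no other gene symbol. Pro-B cells of C57BL/6 mice, wild type and from bone marrow, gave the RNA, which was hybridised to 4 genome-wide arrays of short oligonucleotide probes (Affymetrix Mouse Gene 1.0 ST), numbered replicates 1 to 4. The cells were sorted by the surface proteins B220 and c-Kit, as B220+ c-Kit+ in the labels and with a low B220 gate (B220low c-Kit+) in the study's methods, and the 4 arrays form 1 group with no treatment, transgene or other genotype beside it. The sources used here do not give age, pooling of animals or whether each replicate is a separate mouse. The arrays allow no comparison between conditions, so the network is described by its level over background and by its spread between replicates. All values are log2 intensities, a difference of 1 being a doubling, and they are not set against one another across genes, because probe sets differ in how brightly they read.

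Max is the shared partner of the network. Myc, Mycn and Mycl bind DNA as dimers with Max at the E-box, a palindromic motif, and activate genes for ribosome assembly, nucleotide synthesis and growth. The Mxd proteins (Mxi1 is one of them) and Mnt compete for Max and recruit the Sin3 histone deacetylase corepressor to the same motif. Mlx is a partner related to Max that also pairs with Mxd1, Mxd4 and Mnt and with the glucose-responsive factors MondoA and ChREBP. In B lymphocytes Myc is best known as the oncogene that translocations join to the immunoglobulin loci, and in early B-cell development the Myc proteins drive growth and proliferation.

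The E-box was looked for next to the members' own start sites, since it is the sequence the family binds. The motif searched was CACGTG, which reads the same on both strands, in RefSeq promoter windows of GRCm38.p6 that run from 250 bases before to 50 bases after a gene's start. Of the members, 9 of 10 matched a window, all but Myc. The motif was found for 4 of these 9 (44.4%), against 8.91% of protein-coding genes, 8.09% of all genes in the table and 11.5% of genes above background on these arrays. The 4 stretches of 60 bases are given below, 5′ to 3′ on the gene's strand, with the E-box in capitals.
Max, chr12:76962219-76962278, minus strand: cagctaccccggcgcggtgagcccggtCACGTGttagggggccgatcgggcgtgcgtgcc
Mxd4, chr5:34187897-34187956, minus strand: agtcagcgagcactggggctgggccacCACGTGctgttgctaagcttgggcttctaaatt
Mnt, chr11:74830774-74830833, plus strand: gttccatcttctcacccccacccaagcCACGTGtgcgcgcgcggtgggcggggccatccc
Mlx, chr11:101087223-101087282, plus strand: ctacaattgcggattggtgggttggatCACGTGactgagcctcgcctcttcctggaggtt

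The first base of the motif lay at position -3 from the annotated start in Max, so that the E-box there spans the start itself. It lay at -40 in Mlx, at -123 in Mnt and at -219 in Mxd4. The windows of Mycn, Mycl, Mxd1, Mxd3 and Mxi1 held none of these letters in this order. A match is a description of the sequence, and binding at these sites was not measured.

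All 10 members gave a signal above background on all 4 arrays. The line that stands for background was drawn on each array from 1246 probe sets for chemosensory receptors (olfactory, vomeronasal and taste), genes that lymphocytes are taken not to use. It is their 95th percentile, and it lay between 6.53 and 6.62. Over all probe sets with 1 gene symbol, 63.5% (13744 of 21640) were above the line by the same rule. Myc was 4.92 to 5.23 above the line of its array. Mycn was 0.15 to 0.28 above it, so that its call rests on a small margin.

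Myc, the member best known in lymphoid growth and lymphoma, read 11.45, 11.74, 11.60 and 11.81 on replicates 1 to 4 (11.65 ± 0.16, SD, n = 4). Its lowest value was on replicate 1 and its highest on replicate 4, a range of 0.37, or 1.29-fold. The SD of Myc was larger than that of 73.7% of single-symbol probe sets above background. Replicate 1 lay 0.27 below the mean of the other arrays, a shift of -0.27.

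Mycn, the paralogue best known from neuroblastoma and from progenitor cells, read 6.68, 6.77, 6.79 and 6.87 (6.78 ± 0.077, SD, n = 4). These values cleared the line narrowly, and all 4 lay below a stricter line, the 99th percentile of the silent probe sets. A one-sided limma test of the value over the line, Benjamini-Hochberg adjusted over all probe sets, gave an adjusted p of 0.01 for Mycn. The test takes the line as fixed, so its p measures how steadily Mycn lay over the line between arrays. It does not measure the spread of the 1246 silent probe sets, of which 45 were above the line on all 4 arrays. Mycl, the third paralogue, first described in lung cancer, read 7.13, 7.13, 7.21 and 7.24 (7.18 ± 0.057, SD, n = 4), above the stricter line on replicates 3 and 4 only. Myc, in contrast, cleared the stricter line by 4.28 to 4.58 on every array.

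Max, without which the Myc and Mxd proteins bind DNA poorly, read 10.99, 11.03, 10.98 and 11.12 (11.03 ± 0.065, SD, n = 4). Its spread was among the narrowest of the family, with an SD larger than that of 16.4% of probe sets. Mlx, the partner related to Max, read 10.35, 10.33, 10.67 and 10.59 (10.49 ± 0.17, SD, n = 4). The values of Mlx fell into a lower pair, replicates 1 and 2, and a higher pair, replicates 3 and 4, and its SD exceeded that of 77.0% of probe sets.

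The antagonists of Myc differed among themselves in spread. Mxd1, which is induced as many blood cells differentiate, read 10.37, 10.20, 10.68 and 10.58 (10.46 ± 0.21, SD, n = 4), lowest on replicate 2 and highest on replicate 3. Mxi1, also called Mxd2, read 8.74, 8.82, 8.82 and 8.85 (8.80 ± 0.048, SD, n = 4), the smallest SD of the 10 members. Mxd1 ranged over 0.48 and Mxi1 over 0.11.

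Mxd3, known from dividing cells in S phase, read 8.76, 8.55, 8.33 and 8.29 (8.48 ± 0.22, SD, n = 4), the largest SD of the 10 members. Mxd4 read 9.77, 9.65, 9.58 and 9.44 (9.61 ± 0.14, SD, n = 4). Mnt, the broadly expressed antagonist, read 8.64, 8.58, 8.54 and 8.40 (8.54 ± 0.10, SD, n = 4). All 3 were highest on replicate 1 and lowest on replicate 4, the arrays on which Myc was lowest and highest.

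**Figure D1:**
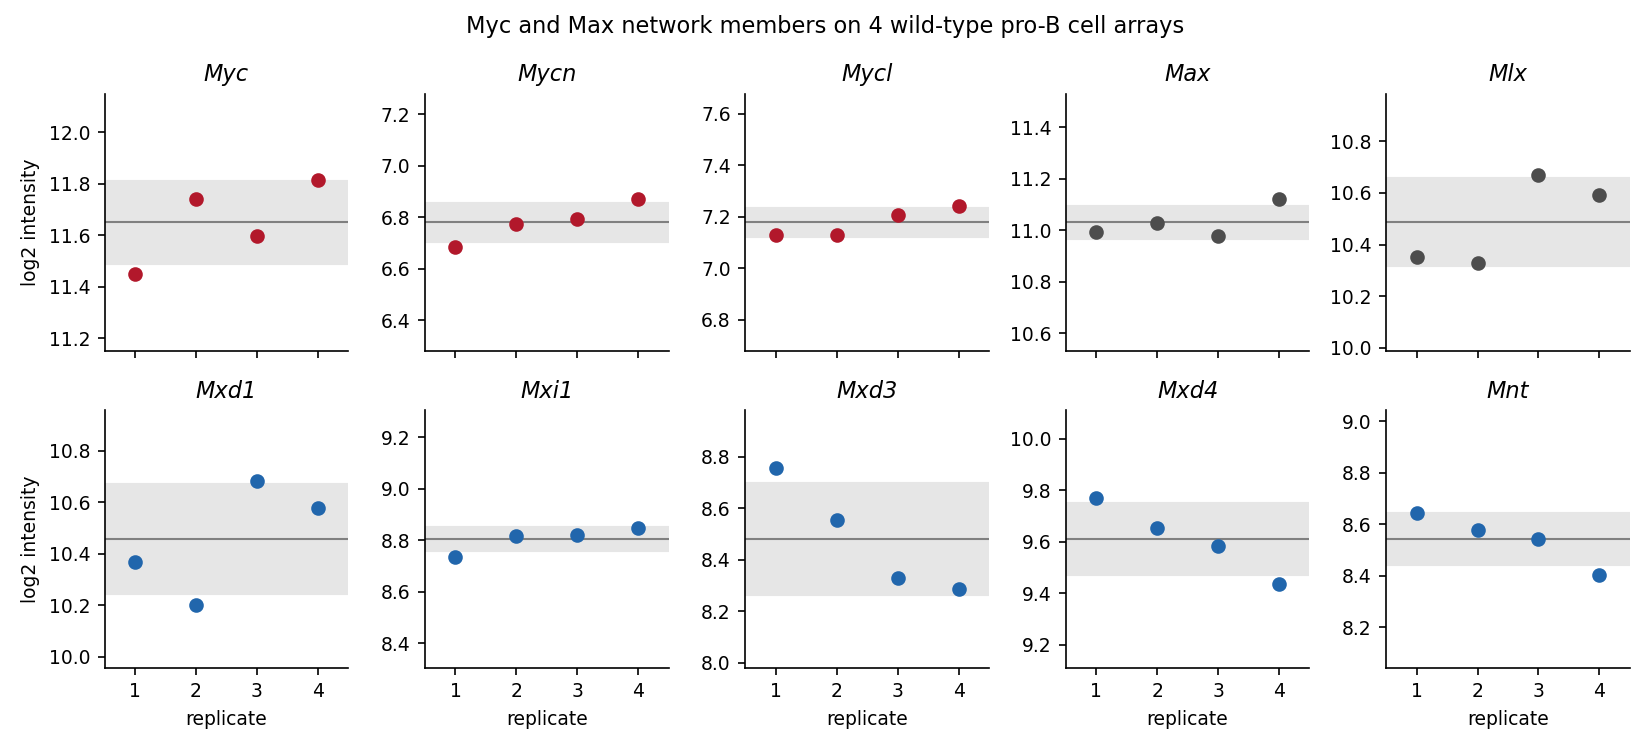
Log2 intensity (y axis, each panel spanning 1 log2 unit around the member's mean) of the 10 network members on replicates 1 to 4 (x axis), with points for single arrays, a line for the mean and a grey band for the SD. Myc is lowest on replicate 1 at 11.45 and highest on replicate 4 at 11.81, while Mxd3, Mxd4 and Mnt are highest on replicate 1 and lowest on replicate 4.

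None of the 10 members had an SD of 0.25 or more, against 8.76% of single-symbol probe sets above background (1204 of 13744). None had a shift of 0.5 or more on any array, against 6.29% of these probe sets. The median SD was 0.121 for the members and 0.115 for all probe sets above background. Mxd3 and Mxd1 came nearest to the SD threshold, at 0.22 and 0.21, larger than that of 87.4% and 86.9% of probe sets. Both pass a lower threshold of 0.2. Mxd1 passes 0.25 without replicate 1, with an SD of 0.253, and Mxd3 passes it without replicate 2, with an SD of 0.26.

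**Figure D2:**
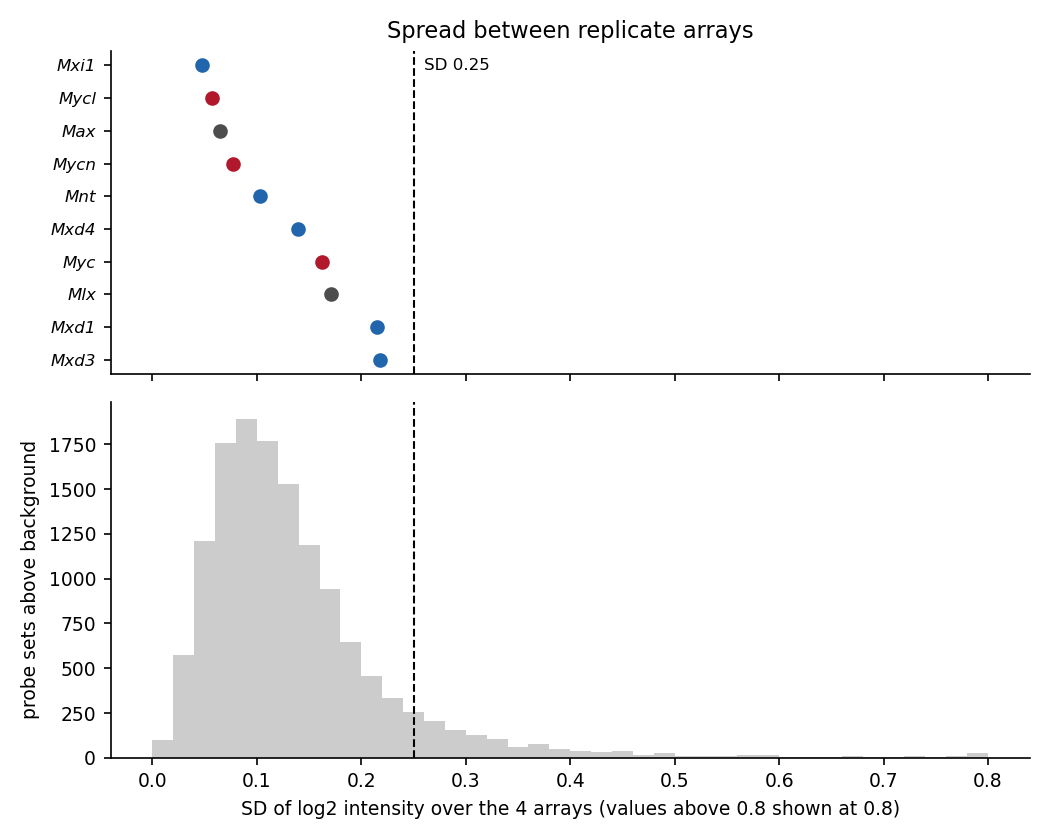
SD of the log2 intensity over the 4 arrays (x axis, both panels), for the 10 members (upper panel, 1 point each, ordered by SD) and as a histogram of all single-symbol probe sets above background (lower panel, y axis in probe sets). The members run from 0.048 for Mxi1 to 0.22 for Mxd3, all left of the dashed line at 0.25.

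The members fell into a few arrangements over the arrays, which were looked at after their values were seen. Mxd3, Mxd4 and Mnt were highest on replicate 1 and lowest on replicate 4, 3 of 10 members, against 14.9% of all probe sets above background. Myc, Mycn, Mycl and Mxi1 were lowest on replicate 1 and highest on replicate 4, 4 of 10 against 8.77%, although Mycl on replicates 1 and 2 was equal to 2 decimals. Mxd1 and Mlx, known to dimerise, were both lowest on replicate 2 and highest on replicate 3, 2 of 10 against 7.93%. Max was highest on replicate 4 and lowest on replicate 3. With each array centred on its median, Max and Mlx became lowest on replicate 1, and the highest and lowest arrays of the other 8 members did not change under that or under quantile or cyclic loess normalization.

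With 4 arrays, each of these arrangements is 1 draw of an order, and a small range gives an order as readily as a wide one. The ranges behind them were 0.47 for Mxd3, 0.33 for Mxd4, 0.24 for Mnt, 0.19 for Mycn and 0.11 for Mycl and Mxi1. Replicate 1 gave 7 of 10 members below the mean of the other arrays, against 47.9% of all probe sets above background.

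Genes that other studies have placed under activation by Myc were lower on replicate 1, the array on which Myc itself was lowest. The list holds 37 entries, 35 of them with a probe set, and all 35 were above background. On replicate 1, 32 of 35 lay below the mean of the other arrays. The median shift there was -0.26, and 20 of 35 had a shift of -0.25 or lower, against 9.53% of all probe sets above background. The median shift on replicates 2, 3 and 4 was 0.06, 0.04 and 0.06. The median shift of all probe sets above background on replicate 1 was 0.01.

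Ncl, the nucleolar protein nucleolin, read 11.80, 11.95, 12.09 and 12.14 on replicates 1 to 4. Npm1, a nucleolar chaperone of ribosome assembly, read 11.48, 11.68, 11.75 and 12.02. Odc1, the first enzyme of polyamine synthesis, read 9.45, 9.64, 10.06 and 9.98. Replicate 1 was the lowest array for all 3, and also for Cad, the enzyme that starts pyrimidine synthesis, at 9.90, 10.38, 10.14 and 10.09.

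The size of the difference was not uniform over the list. The lowest shift on replicate 1 was that of Tfrc, the transferrin receptor, at -0.51, the only target past 0.5. An SD of 0.25 or more was found in 4 of the 35, Odc1, Tfrc, Pa2g4 and Bcat1, against 8.76% of all probe sets above background, and these, like the genes of the next sentence, were named after their values were seen. The 3 targets that were higher on replicate 1 were Bcat1, an enzyme of branched-chain amino acid breakdown, with a shift of 0.50, the telomerase subunit Tert with 0.23 and the hexokinase Hk2 with 0.13. Tfrc is also an iron-uptake gene of red-cell precursors. Without it the median shift was -0.26, but leaving out 1 of 35 genes can hardly move a median. That value therefore says nothing of red-cell RNA in the other targets. The probe sets of Odc1, Fbl, Eif4e, Eif4a1 and Hspd1 were each chosen from several with that symbol, which near-identical gene copies could share.

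Cell-type markers moved on the same array, and their part in the target values was not tested. All 9 erythroid markers were above background and lower on replicate 1, with a median shift of -1.31, and their summed log2 value was 80.5 on replicate 1 and 92.4 to 94.0 on the others. Early B-cell markers ran the other way, 13 of 15 being higher on replicate 1 with a median shift of 0.51. Their summed log2 value was 171 on replicate 1 and 161 to 165 on the others. The exceptions, lower on replicate 1, were Cd24a with a shift of -0.17 and Kit with -0.36. Kit encodes the c-Kit protein by which the cells were sorted. On replicate 4, 11 of 15 early B-cell markers were lower, with a median shift of -0.52. All 7 pre-B and immature B-cell markers were higher on replicate 1, with a median shift of 0.64, and lower on replicate 4, with -0.74. Mxd3, Mxd4, Mnt and Sin3b were likewise highest on replicate 1 and lowest on replicate 4, as were 14.9% of all probe sets above background. Any link between these named genes and the B-cell markers was not tested. Of 13 granulocyte and monocyte markers, all above background, the median shift was -0.05 on replicate 1 and -0.36 on replicate 2. It was 0.20 on replicate 3 and 0.19 on replicate 4. Lower on replicate 2 were 10 of 13, and higher on replicate 3 were 10 of 13. Mxd1 and Mlx were lowest on replicate 2 and highest on replicate 3. Any link between them and these markers was not tested. In such bulk samples fewer cells of a type and less RNA per cell cannot be told apart.

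The erythroid markers include Klf1 and Slc4a1, and none of the 9 lay at background on any array. All 15 early B-cell markers that had a probe set, Pax5 and Ebf1 among them, were above background. Averaged over the arrays, the erythroid markers lay 1.2 (Alas2) to 7.2 (Car1) above the line. The granulocyte and monocyte markers lay 3.3 (Fcnb) to 7.2 (Mpo) above it. The level of the network members in pro-B cells alone was not measured. The sex-linked transcript Xist read 5.48 on replicate 3 and 13.04 to 13.17 on the others, so replicate 3 is not RNA of the same animal. Against the 63.5% of all single-symbol probe sets above background, markers of other cells were so in 7 of 9 genes for T and NK cells, 4 of 4 for megakaryocytes, 4 of 6 for the basophil and mast cell list, 4 of 4 for plasma cells, 5 of 5 for plasmacytoid dendritic cells, 4 of 6 for stem and progenitor cells and 5 of 7 for stroma and endothelium. Of the T and NK cell genes, Cd3g, Cd8a and Cd4 were only 0.21 to 0.58 above the line. They lay below the 99th percentile line on all 4 arrays, while Cd3e, Ncr1 and Nkg7 cleared it. Cd3d was below background on all 4 arrays. No member of the network stood apart on replicate 3 by 0.5. Housekeeping genes, 8 of 8 above background, had a median shift of -0.03 on replicate 1.

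Leaving out replicate 2, 3 or 4 kept the direction of the target values, in alternatives chosen after the data were seen. Replicate 1 was the lowest array for most targets, so this outcome was all but fixed and adds little. Without replicate 2, 3 or 4, the median shift on replicate 1 was -0.24, -0.26 and -0.23. With replicate 1 itself left out, the median shifts of replicates 2, 3 and 4 were -0.001, -0.03 and 0.04. A shift on replicate 1 is a value of that array alone, and no other array repeats it.

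**Figure D3:**
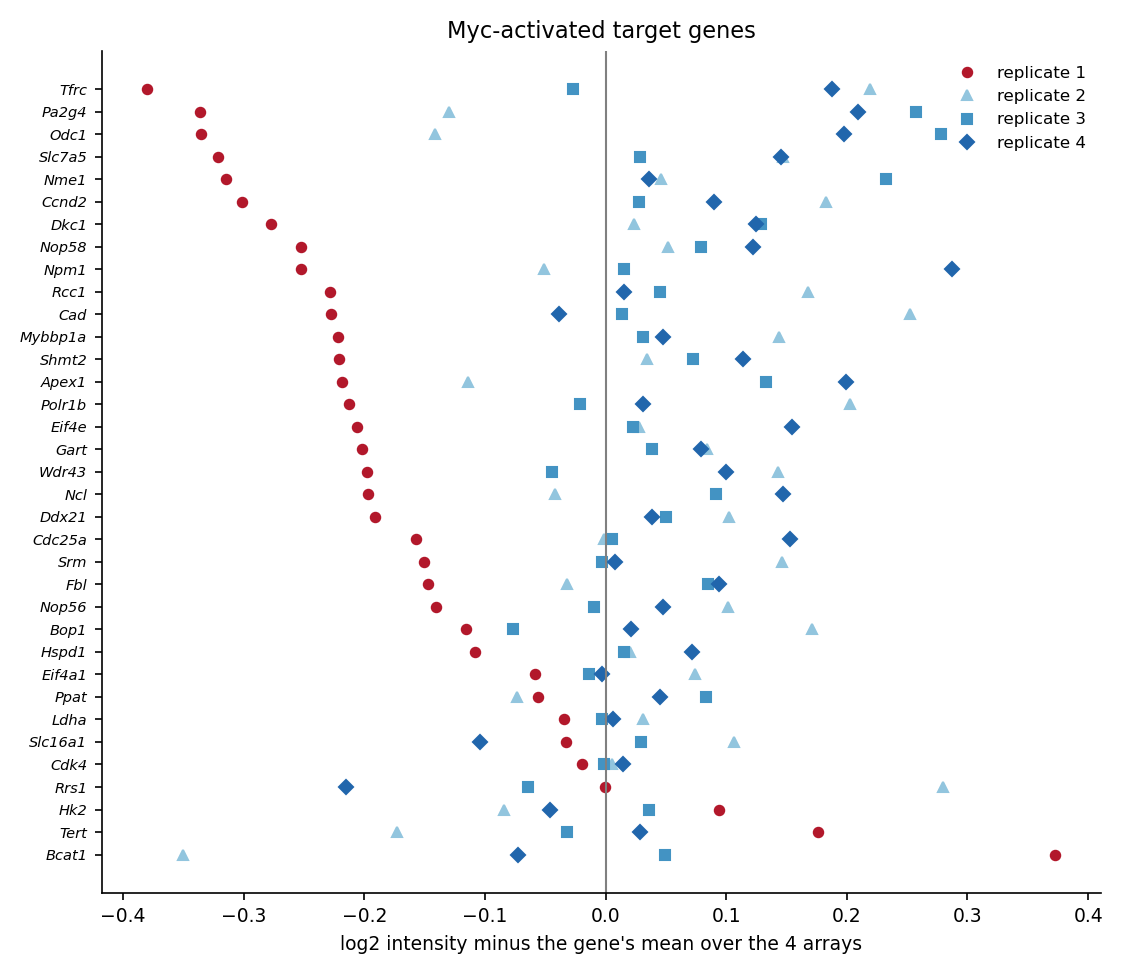
Log2 intensity minus the gene's mean over the 4 arrays (x axis) for the 35 Myc-activated targets (y axis, ordered by the replicate 1 value), with 1 marker per array. Replicate 1 lies left of the mean of the other arrays in 32 of 35 genes, from Tfrc with a shift of -0.51 to Bcat1 with 0.50.

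The E-box was also looked for in the targets. It was found for 10 of 28 targets with a promoter window (35.7%), against 8.91% of protein-coding genes and 11.5% of genes above background on these arrays. On replicate 1 the 10 targets with the motif were all lower, with a median shift of -0.20, and 15 of the 18 without it were lower, with a median of -0.28. The difference between these groups of genes was not tested.

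The list of cell cycle genes, 16 of 16 above background, had 9 genes lower and 7 higher on replicate 1, with a median shift of -0.06. Their SDs ran from 0.025 to 0.22 with a median of 0.096, and those of the Myc-activated targets from 0.014 to 0.30 with a median of 0.153. Mki67, the proliferation antigen, read 12.48, 12.37, 12.47 and 12.48. The mitotic kinase gene Cdk1 read 11.65, 11.64, 11.67 and 11.69, and Top2a, the topoisomerase that untangles chromosomes, 11.45, 11.35, 11.49 and 11.47. The S-phase and mitotic cyclin gene Ccna2 read 12.48, 12.40, 12.32 and 12.38. Each of these 4 ranged over less than 0.2. Other genes of the list, named after their values were seen, ranged over more. The S-phase cyclin gene Ccne1 ranged over 0.46, with a shift of -0.43 on replicate 1. Mcm2, Pcna and Mcm3 of DNA replication ranged over 0.33, 0.32 and 0.31. On replicate 1, Mcm2, Mcm3, Mcm5 and Mcm6 had shifts of -0.23, -0.22, -0.14 and -0.17. Tyms and Rrm2 had shifts of -0.18 and -0.17 there, while Pcna and Ccne2 were higher, both with 0.11.

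**Figure D4:**
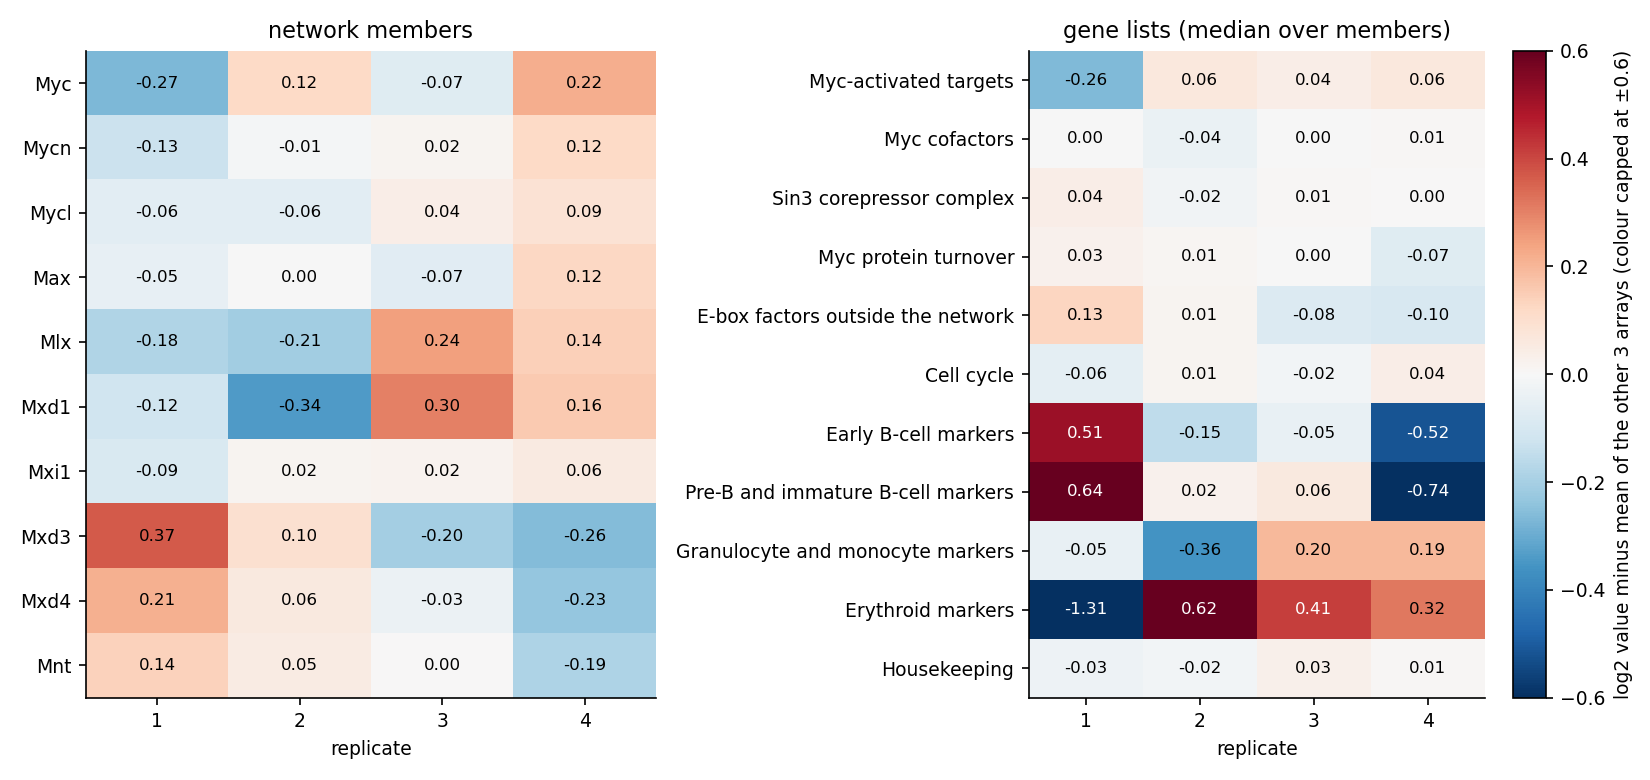
Value on each array minus the mean of the other 3, in log2 units (colour, capped at 0.6 in either direction, with the number written in each cell), for the 10 members (left) and as the median over the genes of each list (right), by replicate (x axis). On replicate 1, Myc is at -0.27 and the Myc-activated targets at -0.26, beside -1.31 for erythroid and 0.51 for early B-cell markers.

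Of the Myc cofactors, 15 of 15 with a probe set were above background, with a median SD of 0.075. Trrap, the scaffold that Myc uses to recruit histone acetyltransferases, read 10.24, 10.19, 10.11 and 10.08, and Ep400, an ATPase of the same kind of complex, 10.42, 10.43, 10.28 and 10.42. The acetyltransferase genes Kat2a and Kat5 had means of 10.67 ± 0.15 and 9.24 ± 0.042 (SD, n = 4). None of the 15 had an SD of 0.25 or more, against 8.76% of all probe sets above background, but Ruvbl1, an ATPase of the same complexes that was named after its values were seen, lay just under it at 0.2496, with a shift of -0.43 on replicate 1.

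The Sin3 corepressor, through which the Mxd proteins and Mnt repress, had 14 of 14 genes above background and a median SD of 0.082. Sin3a read 9.96, 9.95, 9.96 and 9.98, one of the steadiest values here. Its paralogue Sin3b read 9.12, 8.87, 8.85 and 8.67, highest on replicate 1 and lowest on replicate 4 like Mxd3, Mxd4 and Mnt. Rbbp4 and Ing1 of the same list had this placing too, as did 14.9% of all probe sets above background. Any link between Sin3b and the antagonists was not tested. The deacetylase genes Hdac1 and Hdac2 averaged 11.69 ± 0.069 and 10.40 ± 0.079 (SD, n = 4).

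Genes that control the stability of the Myc protein were also above background, 15 of 15, with a median SD of 0.091. Fbxw7, the ubiquitin ligase subunit that targets phosphorylated Myc, read 7.64, 7.52, 7.62 and 7.45. Skp2, another ligase subunit that binds Myc, read 9.96, 9.84, 9.91 and 9.73. The ligase gene Huwe1 averaged 11.28 ± 0.066 and the deubiquitinase gene Usp28 averaged 8.51 ± 0.097 (SD, n = 4). Protein was not measured, so these values say nothing of how much Myc protein the cells held.

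Other factors that bind E-boxes or pair with Max or Mlx were above background, 12 of 12. Their median shift on replicate 1 was 0.13, with 9 of 12 higher there, against 7165 of 13744 of all probe sets above background. Mga, which pairs with Max, read 10.41, 10.24, 10.22 and 10.21. Mlxip, which encodes MondoA and pairs with Mlx, read 11.04, 10.72, 10.65 and 10.59, and the ChREBP gene Mlxipl 7.04, 7.28, 6.94 and 7.03. Usf1, an E-box factor that uses neither Max nor Mlx, read 8.77, 8.59, 8.27 and 8.35. Mga, Mlxip and Usf1 were thus highest on replicate 1, and Mlxipl was not.

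The patterns most like that of Myc over the 4 arrays, by the root-mean-square difference after centring each probe set on its mean, were those of Pitx1 (0.0115), Gemin4 (0.0142), Nup37 (0.015), Eif2s2 (0.0155) and Serinc2 (0.0157). Myc itself differed from a flat line by 0.14 on this measure. Pitx1 was only 0.06 to 0.34 above the background line and Serinc2 0.26 to 0.55. Both lay below the 99th percentile line on all 4 arrays, while Gemin4, Nup37 and Eif2s2 cleared it on all 4. For Mxd3, which differed from a flat line by 0.19, the nearest were Atxn7 (0.0114), Invs (0.0168), Tmem64 (0.0194), Lrrk2 (0.02) and Cbfa2t3 (0.0208). These 10 were chosen from 13744 probe sets on 4 arrays, and all 5 beside Myc share its order of the arrays, as all 5 beside Mxd3 share that of Mxd3.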

How the data were processed

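The deposited values are log2 intensities per probe set, which the authors made from biotin-labelled cDNA of sorted pro-B cells by RMA background correction and normalization. The sources used here do not give the genome build, which arrays were normalized together, or the threshold of the authors' filter on low expression. Nothing was filtered from the 34760 probe sets or normalized again. Probe sets were named from the platform annotation, in which 21640 have 1 gene symbol, 1321 several and 11799 none listed. Of the 21640, 21553 matched RefSeq by gene identifier, and all 10 members did. A list gene with several probe sets was given by the one with the highest mean. It was counted as above background where any of its probe sets was.

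Above background means above the 95th percentile of the 1246 silent probe sets on all 4 arrays, which 45 of the silent ones passed themselves. A shift is the value on 1 array minus the mean of the other 3. An SD of 0.25 and a shift of 0.5 are fixed sizes with no p. The number of arrays limits the precision.

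The members and the 21 gene lists were chosen with earlier results of these data known. Genes named are the 10 members and the first 4 genes with a probe set of each pathway list. Also named are the 5 probe sets nearest in pattern to Myc and to the member with the largest SD. Other genes, single markers among them, were named after their values were seen. Marker lists are given by counts, median shifts, sums and ranges. Sequences came from RefSeq (GRCm38.p6). The planned comparison of protein sequences was not run, since no protein table was used here. Alternatives were other background lines, a one-sided limma test, other normalizations and leaving out each replicate. Scripts were tested on simulated data and run with Python 3.11.15, pandas 2.3.3, numpy 2.4.6, limma 3.58.1 and R 4.3.3.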

Additional observations from a re-analysis of the deposited data

Results flagged for a closer look

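A value was taken as standing apart from the other arrays when its gap to the nearest of them, divided by the range of the 4, passed Dixon's 95% critical value. The genes looked at were the 10 members, all list genes with a probe set and the probe sets nearest in pattern to Myc and Mxd3. No network member stood apart. Of 235 genes, 21 did, 11 of them on replicate 1, and chance gives about 1 in 20. Over all probe sets above background the share was 5.36%.

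Among genes tied to the network's function, the cofactor genes Ep400 and Zbtb17 stood apart, Ep400 lower on replicate 3 at 10.28 and Zbtb17 higher on replicate 1 at 8.92. The Myc-activated target Gart was lower on replicate 1 at 10.91, and the cyclin gene Ccne1 was lower there at 10.27. The proliferation gene Mki67 was lower on replicate 2 at 12.37.

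On replicate 1 the erythroid genes Slc4a1 at 8.52, Alas2 at 6.96, Hemgn at 7.89, Rhd at 8.41 and Tspo2 at 8.26 were lower than on the other arrays, and so was the receptor gene Kit at 10.46. Irf8, a factor of B and dendritic cells, was higher there at 12.51, and so was the cytotoxic granule gene Gzmb at 7.30. On replicate 2 the neutrophil granule genes Ngp at 12.38 and Ltf at 9.50 and the basophil protease gene Mcpt8 at 9.15 were lower. On replicate 4 the platelet gene Pf4 was lower at 7.90 and the granule protease gene Prtn3 was higher at 13.22. On replicate 3 the housekeeping gene Ppia was higher at 13.31, the Y-linked gene Eif2s3y was higher at 10.05, and the X-inactivation transcript Xist was lower at 5.48.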

How the results depend on the processing

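The count of 10 members above background was 8 with the 99th percentile of the silent probe sets or the array median as the line, Mycn and Mycl being the members that failed, and 10 under each of the other lines, the rule of 3 of 4 arrays, limma's one-sided test, quantile normalization, cyclic loess and the leaving out of each replicate. The count of members with an SD of at least 0.25 was 0, and 2 with an SD of at least 0.2. It was 0 to 1 when single replicates were left out, the 1 being Mxd1 without replicate 1 and Mxd3 without replicate 2. The count with a shift of at least 0.5 stayed at 0 under every alternative run. The median shift of the Myc-activated targets on replicate 1 was -0.26, -0.26 and -0.30 under quantile, loess and median centring. No paired analysis was possible because the series holds a single group. Mycn and Mycl lie near background, and 4 arrays of 1 group support no statement about conditions.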

Other observations

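Of the genes that Myc is known to repress, 7 had a probe set and all were above background. On replicate 1, 4 were higher and 3 lower, with a median shift of 0.005. On replicate 4, the array on which Myc was highest, 6 of 7 were lower, with a median shift of -0.14. Over all probe sets above background, 7430 of 13744 were lower there. The count was 5 of 7 under the other normalizations and without replicate 1 or 2, and 6 of 7 without replicate 3. Also lower on replicate 4 were 10 of 12 E-box factors outside the network and 12 of 15 genes of Myc protein turnover. Of the Myc-activated targets, 6 of 35 were lower there. A link to the level of Myc was not tested. Cdkn1b, the cell cycle inhibitor p27, read 10.99, 10.44, 10.58 and 10.49 on replicates 1 to 4, highest on replicate 1. The inhibitor gene Cdkn2b read 7.09, 7.13, 7.15 and 6.98, and the stress gene Gadd45a read 8.21, 8.66, 8.41 and 8.42, lowest on replicate 1. Ndrg1, the gene for which the family of N-myc downstream regulated genes is named, read 10.25, 10.05, 10.20 and 10.14. Its paralogue Ndrg2, named after its values were seen, had the largest spread of the list, with an SD of 0.36 and a shift of -0.65 on replicate 1.

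Genes under MondoA and ChREBP, the glucose-responsive partners of Mlx, had SDs of 0.22 to 0.70, with a median of 0.27 over 4 genes, and the SDs of the 10 members ran from 0.048 to 0.22. The difference was not tested. Txnip, an inhibitor of thioredoxin and of glucose uptake, read 11.88, 11.23, 11.62 and 11.32. Its relative Arrdc4 read 8.81, 8.31, 8.60 and 8.33, and the transcription factor gene Klf10 read 9.74, 9.35, 9.52 and 9.25. These 3 were highest on replicate 1, as was the MondoA gene Mlxip. Lying above the mean of the other arrays is a looser measure than being highest. On replicate 1 it held for 3 of the 4 genes, against 7165 of 13744 of all probe sets above background. A link between Mlxip and these genes was not tested. The fourth, the pyruvate kinase gene Pklr, which red-cell precursors also use, read 9.20, 10.77, 10.44 and 10.52, lowest on replicate 1 beside the erythroid markers.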
